A study of Mus musculus with 12 samples.

Results

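The LPS time course in mouse urinary bladder comprised 6 of the 12 arrays of the series: LPS at 1, 4 and 24 h and saline at 1, 4 and 24 h. Arrays were assigned by sample title. The LPS, saline and substance P mice were C57BL/6 females. The challenge was LPS at 100 mg/ml as labelled or saline, and the bladders were taken for total RNA after 1, 4 or 24 h. Each group held 1 array. Neither the number of mice behind an array nor the route of the LPS and saline challenge is labelled. The other 6 arrays, used for scaling and for the spread between arrays, came from mice given substance P at 1 µM, a neuropeptide of sensory nerves, or from mice sensitized with DNP-HSA and challenged in the bladder with DNP-OVA, each at the same 3 times. No sex is given for the sensitized mice.

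Lipopolysaccharide is the surface glycolipid of Gram-negative bacteria, the group that most often infects the bladder. It is sensed by Toll-like receptor 4 with its partners CD14 and MD-2 on urothelial cells, macrophages and other cells. Signalling through NF-κB then switches on cytokine, chemokine and adhesion molecule genes within hours, and feedback inhibitors made in the same wave later restrain it. The usual question of such a time course is therefore which transcripts move early, which follow and which return.

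The array held 1185 probes named by codes of 3 series (597 M, 351 V and 237 MA). The deposited table does not pair codes with genes, and in the RefSeq gene table (GRCm38.p6) 0 codes matched by symbol, by gene ID or by accession, so the bladder identity of the RNA and the LPS response genes could not be checked by name. Probes are described by code. All levels below are log2 intensities after quantile normalization of the 12 arrays, which gives probes of equal rank on different arrays the same level. Values under the floor of 15.54, the 10th percentile of all values, were raised to it. Ranks count from the brightest probe of an array and do not depend on scaling.

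Depth cannot be counted on arrays, and their number limits the precision. The median deposited intensity was 46121 on LPS 1 h, 62062 on LPS 4 h and 26283 on LPS 24 h, and 53297 to 78536 on the saline arrays. The arrays also differed in range. From the 10th to the 90th percentile, intensities spanned 2.48-fold on LPS 1 h, 1.36-fold on LPS 4 h and 1.55-fold on LPS 24 h, against 2.00-fold, 2.51-fold and 1.43-fold on saline 1, 4 and 24 h. Without scaling, the median probe stood 0.78, 0.11 and 0.73 log2 units below the saline array of the same time at 1, 4 and 24 h. Values below are relative to that shift. 1 control stood apart: across probes saline 24 h had a mean r of 0.934 with the 3 ovalbumin arrays and 0.841 with the other 2 saline arrays, where saline 1 h and 4 h had 0.853 and 0.841 with ovalbumin and 0.877 and 0.871 with saline. Without saline 24 h, the counts given next against all remaining saline arrays were 20 higher and 0 lower for LPS 1 h, 8 higher and 12 lower for LPS 4 h, and 0 higher and 3 lower for LPS 24 h, and limma called 29, 38 and 2 probes.

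Over all probes on the quantile scale, LPS 1 h had more probes above all 3 saline arrays than any saline array above the other 2. The counts at 4 h and 24 h against all 3 were no larger than the largest among saline arrays, which had only 2 references. Against all 3 saline arrays, LPS 1 h had 23 higher probes under median scaling and 3 without scaling. It had 8 with quantile normalization of the LPS and saline arrays alone. Saline arrays were not read against each other under these scalings, so the 1 h excess was not tested there. Because each group is 1 array, every LPS array was read against its time-matched saline array and then against all 3 saline arrays, with a fold of 2 as the limit. At 1 h, 30 probes (2.58% of those above the floor on either array) were at least 2-fold above matched saline and 3 (0.258%) at least 2-fold below it. Against all 3 saline arrays, 16 probes remained above (1.35%) and 0 below. At 4 h, 10 probes lay above matched saline (0.869%) and 16 below (1.39%), and 7 (0.593%) and 3 (0.254%) of them passed all 3 saline arrays. At 24 h, 16 lay above (1.38%) and 17 below (1.47%), and 0 and 1 (0.0848%) passed all 3.

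**Figure D1:**
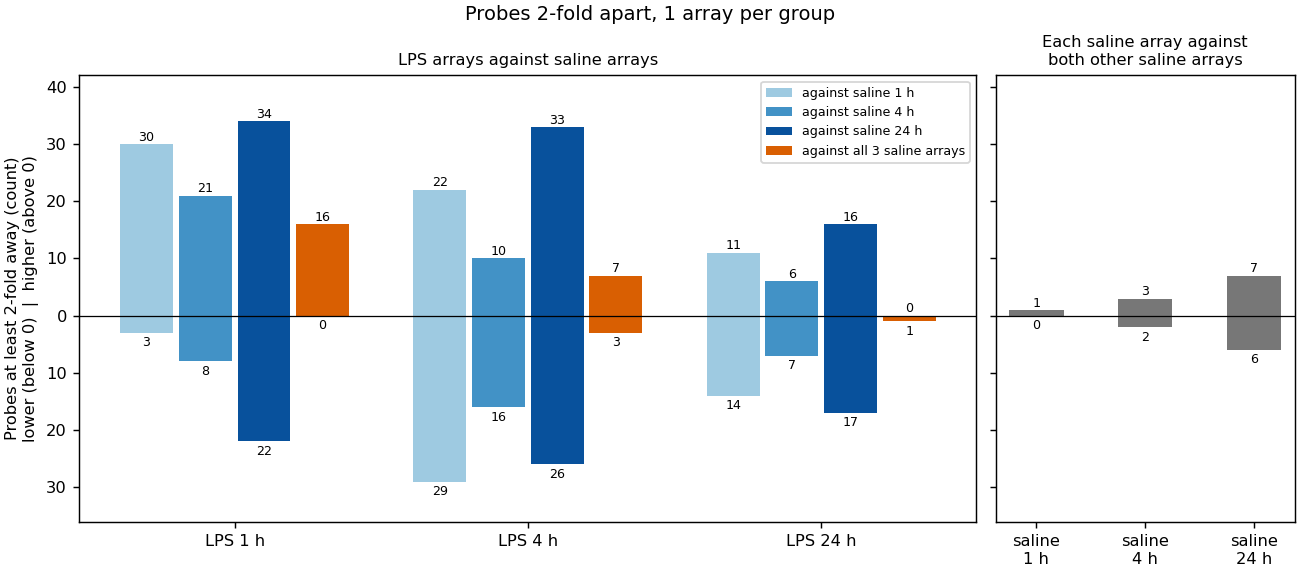
Bars give the number of probes at least 2-fold higher (above 0) or lower (below 0) on each LPS array than on each saline array and than all 3 saline arrays, and, at right, on each saline array than on both other saline arrays. On the quantile scale, LPS 1 h had 16 higher probes against all 3 saline arrays. On that scale the saline arrays had 1, 3 and 7 against the other saline arrays.

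The saline arrays read the same way give the background for these counts. Saline 4 h and 1 h were 2-fold apart in 8 probes (0.675% of 1185), saline 24 h and 1 h in 34 (2.87%) and saline 24 h and 4 h in 33 (2.78%), against 33, 26 and 33 for the LPS arrays and their matched saline. Saline 1 h was 2-fold above both other saline arrays in 1 probe and below in 0, saline 4 h in 3 and 2, and saline 24 h in 7 and 6. On the quantile scale, the 16 probes of LPS 1 h exceed each of these saline counts. Each saline count has only 2 reference arrays and so a looser limit. The saline counts were not made under the other scalings. The 7 and 3 of LPS 4 h are of the size of the 7 and 6 of saline 24 h, and the 0 and 1 of LPS 24 h are below it. With saline 1, 4 or 24 h left out, LPS 4 h had 8, 16 and 8 higher and 4, 8 and 12 lower probes. LPS 24 h then had 2, 5 and 0 higher and 1, 3 and 3 lower. With 2 references each, LPS 4 h had more higher probes on this scale than each saline array, though only 8 against 7 of saline 24 h with saline 1 h and 4 h as references. Under median scaling or no scaling LPS 4 h had 0 higher probes against all 3 saline arrays. LPS 24 h did not exceed saline 24 h. On the other arrays, set against all 3 saline arrays, substance P gave 6, 1 and 0 higher probes at 1, 4 and 24 h, ovalbumin gave 0, 0 and 5, and neither gave a lower one. These comparisons share the saline arrays, and the differences between the counts were not tested.

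The spread of the ratios across probes did not separate LPS from saline. The SD of the log2 ratio to matched saline was 0.389 at 1 h, 0.376 at 4 h and 0.384 at 24 h, and between saline arrays it ran from 0.295 (4 h against 1 h) to 0.394 (24 h against 4 h). The upper end did so at 1 h. The highest log2 ratio to matched saline was 3.57 at 1 h, 1.90 at 4 h and 1.87 at 24 h, while the saline arrays reached 1.89 and -2.43 in the 2 directions. LPS 24 h was nearest to saline 4 h, with a Spearman rho across probes of 0.743, against 0.673 with saline 1 h and 0.651 with its own saline 24 h. It differed 2-fold from saline 4 h in 6 higher and 7 lower probes. The 24 h count therefore depends on which saline array is used.

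To put an error on single LPS arrays, each was compared with the mean of the 3 saline arrays in limma, with the spread between arrays taken from the saline, substance P and ovalbumin groups over their 3 times (6 residual degrees of freedom). The lone LPS array is assumed to vary like those arrays. With 1 array per group, that spread includes any change over time within a treatment and is not a replicate spread. It may also be partly technical, and each p-value rests on it alone. At 1 h, 30 of 1181 probes (2.54%) were higher and 5 (0.423%) lower at a Benjamini-Hochberg adjusted p under 0.05. At 4 h, 11 (0.931%) were higher and 7 (0.593%) lower, and at 24 h 2 (0.169%) were higher and 0 lower. All of these probes stood outside the range of the 3 saline arrays. Of the 16 probes past the 2-fold limit at 1 h, 11 were among those called. The median half-width of the 95% confidence interval was 0.359 on the log2 scale, which sets the size of change that could be resolved. Averaged over times in a model with stimulus and time, limma called 0 probes (110 with an unadjusted p under 0.05).

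The calls depend on which arrays supply the spread. With the LPS and saline arrays alone (2 residual degrees of freedom) limma called 0 probes at each time, with 81, 110 and 48 at an unadjusted p under 0.05. Under median scaling, 29 probes were higher and 0 lower at 1 h, 25 of them among the original calls, while 0 were called at 4 h and 24 h (94 and 43 unadjusted).

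Named probes were ranked by their ratio to the nearest saline array. Lying beyond 3 of 3 saline arrays at the time that chose them is therefore fixed by the choice and is no support. At 1 h the probe farthest above saline was M781. Its level was 20.14 on LPS 1 h, 18.43 on LPS 4 h and 16.09 on LPS 24 h, against 16.57, 16.90 and 15.90 on saline at the same times. It was the 4th brightest probe on LPS 1 h and stood at rank 149, 92 and 527 on the saline arrays. The 1 h level was 9.47-fold to 18.9-fold above the saline arrays, and the 24 h level lay within the saline range. The 4 h level lay 2.89-fold above matched saline by rank only: the deposited intensity was 121565 on LPS 4 h and 149227 on saline 4 h, with array medians of 62062 and 67338. On the substance P arrays M781 stood at 20.14, 17.81 and 16.05 and on ovalbumin between 16.00 and 16.31. The substance P arrays enter the spread, and the limma difference at 1 h, 3.69 ± 1.19 (SE, 1 array against 3), had an adjusted p of 0.186. Without substance P 1 h the adjusted p was 0.021.

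V164 was next. Its level was 19.59, 17.06 and 16.60 on LPS 1, 4 and 24 h and 16.82, 16.54 and 16.45 on saline. It ranked 6 on LPS 1 h and between 101 and 178 on saline, 6.78-fold to 8.76-fold above the saline arrays. Its difference at 1 h was 2.98 ± 0.60 (SE, limma, adjusted p = 0.0339, higher than 3 of 3 saline arrays), and it passed in 3 of the 9 fits that left out 1 of the other arrays. Those were the fits without substance P 1, 4 or 24 h (adjusted p = 0.000161, 0.0473 and 0.0386), and without any 1 of the saline or ovalbumin arrays it ran from 0.069 to 0.0779 in limma. The call was also lost under median scaling (0.148) and without scaling (0.0741). At 4 h V164 was 1.18-fold to 1.52-fold above the saline arrays (adjusted p = 0.722 in limma). V164 also stood high on substance P 1 h, at 18.33, and at 16.47 to 16.61 on the later substance P arrays. By fold alone, M781, V164 and M295 were the 3 probes at least 2-fold above all 3 saline arrays under quantile normalization, median scaling and no scaling alike.

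On the low side at 1 h, M840 and M29 were farthest below the saline arrays. The choice fixed their place below 3 of 3 at 1 h, but not at 4 h. M840 stood at 16.28 on LPS 1 h and 16.51 on LPS 4 h, against 17.21 to 17.49 on saline, and at 17.18 on LPS 24 h. It fell by 1.09 on the log2 scale at 1 h (SE 0.13, limma adjusted p = 0.00436) and by 0.86 at 4 h (SE 0.13, limma adjusted p = 0.0215), below 3 of 3 saline arrays each time. Under median scaling neither call held (adjusted p = 0.461 and 0.61 in limma). M29 was at 16.14 on LPS 1 h and 16.95 to 17.00 on saline, with an adjusted p of 0.149 in limma. The 3 probes over 2-fold below matched saline at 1 h, MA202, MA337 and V201, did not pass the other saline arrays.

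At 4 h the highest probes were ones that limma had not called at 1 h. M333 stood at 15.57, 17.68 and 15.80 on LPS 1, 4 and 24 h and between 15.55 and 15.78 on saline. It ranked 41 on LPS 4 h and 700 on saline 4 h, and 659 or lower on the other LPS and saline arrays. On the 6 other arrays it lay between 15.61 and 16.04. Its place above all 3 saline arrays at 4 h was fixed by the choice. It rose by 2.01 ± 0.14 on the log2 scale at 4 h (4.02-fold, limma adjusted p = 0.000183, higher than 3 of 3 saline arrays). It was 4.32-fold higher at 4 h than at 1 h (limma adjusted p = 0.00108) and 3.68-fold lower at 24 h than at 4 h (limma adjusted p = 0.000922).

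M112 had the same course, and its choice likewise fixed its place above 3 of 3 saline arrays at 4 h. Its level was 15.75, 18.04 and 16.18 with LPS and 15.75, 16.29 and 15.85 with saline, and between 15.71 and 16.17 on the 6 other arrays. The rise at 4 h was 2.07 ± 0.20 (limma adjusted p = 0.0013, higher than 3 of 3). It too was higher at 4 h than at 1 h (4.87-fold, limma adjusted p = 0.00397) and lower at 24 h than at 4 h (3.63-fold, limma adjusted p = 0.00968). These sizes rest on the scaling: under median scaling M333 was 0.70 and M112 0.37 log2 units above the nearest saline array, and without scaling 0.61 and 0.26. The part of the narrow range of LPS 4 h given above was not tested. Both probes kept their direction, and neither passed limma against saline at 4 h under median scaling (adjusted p = 0.108 and 0.607) or without scaling (0.738 and 0.999). The rise of M333 from 1 h to 4 h did pass under median scaling (0.95, limma adjusted p = 0.0157), and that of M112 did not (0.97, adjusted p = 0.113).

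The lowest probes at 4 h were M318 and V210, whose choice fixed their place below 3 of 3 saline arrays at 4 h. M318 stood at 17.83, 15.90 and 17.17 on LPS and 18.20, 17.67 and 18.61 on saline at 1, 4 and 24 h, and at 17.92 to 19.23 on the other 6 arrays. It ranked 526 on LPS 4 h and between 9 and 69 on the 11 other arrays. It was 3.41-fold to 6.55-fold below the saline arrays at 4 h, a fall of 2.26 (SE 0.34, limma adjusted p = 0.0186, lower than 3 of 3). With each of the 9 other arrays left out in turn, its adjusted p ran from 0.00435 to 0.0498 in limma. M318 was 2-fold below all 3 saline arrays under each of the 3 scalings, the single probe at 4 h of which that held, although limma did not call it under median scaling (adjusted p = 0.211) or without scaling (0.296).

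V210 stood at 17.74, 16.42 and 18.50 on LPS and 18.43, 18.61 and 17.96 on saline. It was 2.91-fold to 4.58-fold below the saline arrays at 4 h, a fall of 1.92 (SE 0.25, limma adjusted p = 0.00814). At 24 h it lay within the saline range and 4.24-fold above its level at 4 h (limma adjusted p = 0.0164). Under median scaling neither call held (0.61 and 0.998). The third probe past all 3 saline arrays was M554, at 16.75, 16.07 and 18.53 on LPS and 17.31 to 17.56 on saline. It fell at 4 h by 1.37 (SE 0.18, limma adjusted p = 0.00814) and was the probe highest above all saline arrays at 24 h, 1.96-fold to 2.34-fold, where limma did not call it (adjusted p = 0.0645). Its log2 ratio to the highest saline array at 24 h was 0.97, but 0.29 under median scaling and -1.07 without scaling. In deposited intensity it lay above saline 24 h (120040 against 99964) and below saline 1 h and 4 h. Between 4 h and 24 h it rose 5.51-fold (limma adjusted p = 0.000922), and under median scaling neither this nor the 4 h call held (0.553 and 0.61).

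**Figure D2:**
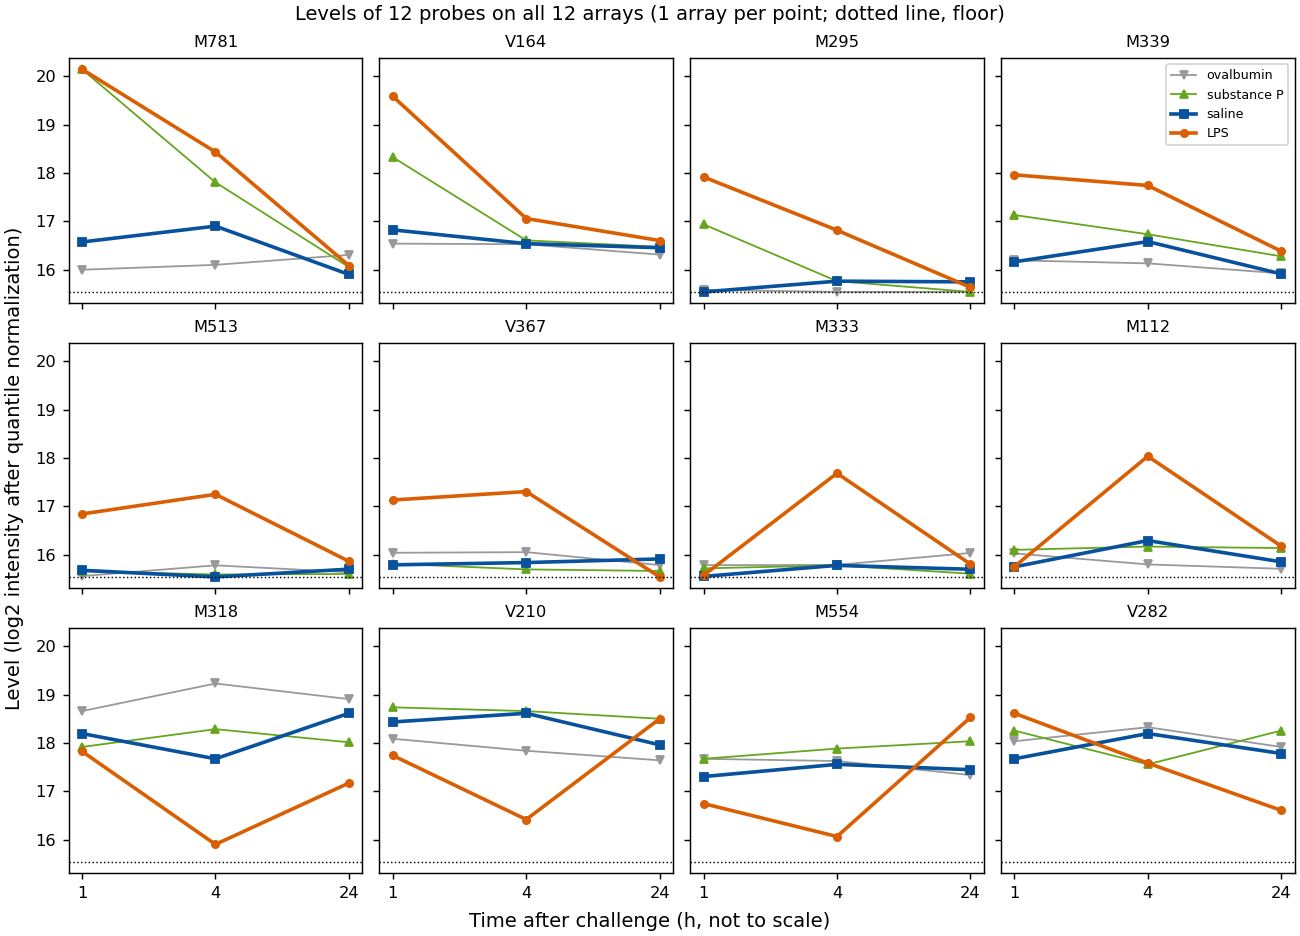
Each panel plots 1 probe: its log2 level after quantile normalization on the LPS (orange), saline (blue), substance P (green) and ovalbumin (grey) array at 1, 4 and 24 h, 1 array per point. M781 and V164 were highest at 1 h with LPS, M333 and M112 at 4 h, and M318 and V210 were lowest at 4 h.

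At 24 h few probes stood apart from saline. M272 was chosen by its ratio to the nearest saline array, which fixed its place above 3 of 3 at 24 h. M272 was at 15.68, 15.62 and 16.70 on LPS and 15.70 to 15.77 on saline, and at 15.74 to 16.01 on the 6 other arrays. It rose by 0.97 ± 0.12 (1.96-fold, limma adjusted p = 0.028, higher than 3 of 3). It was also 2.03-fold above LPS 1 h and 2.12-fold above LPS 4 h (limma adjusted p = 0.00822 and 0.00968), contrasts that use no saline level and did not pass under median scaling (0.109 and 0.779). The other probe called at 24 h, named after its value was seen, was MA224, at 17.00 on LPS 24 h and 16.13 to 16.34 on saline (0.74 ± 0.11, limma adjusted p = 0.0483). M272 passed limma in 4 and MA224 in 1 of the 9 fits that left out 1 array. M272 was lost without saline 1 h, substance P 24 h or any 1 of the ovalbumin arrays (adjusted p = 0.0625 to 0.0993), and MA224 held only without saline 4 h (0.0351). Without scaling both lay below saline (-0.70 and -0.93), as did most probes.

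V282 and MA297 were farthest below saline at 24 h. V282 was at 18.61, 17.58 and 16.61 on LPS and 17.67, 18.20 and 17.78 on saline, 2.09-fold to 3.01-fold below the saline arrays at 24 h (limma adjusted p = 0.171). It fell by 2.01 between LPS 1 h and LPS 24 h (SE 0.38, limma adjusted p = 0.0247; 0.266 under median scaling). MA297 was at 18.04, 17.98 and 16.51 on LPS and 17.46 to 18.09 on saline, 1.94-fold to 2.99-fold below at 24 h (limma adjusted p = 0.402). Neither passed limma against saline at 24 h.

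The order of rise and fall was read from the ratios to matched saline, in which each time has its own LPS and its own saline array. In all, 50 probes were at least 2-fold higher at 1 or more times and 35 lower, with 2 probes in both. Of the 50, 25 were higher at 1 h alone, 5 at 1 h and 4 h, 4 at 4 h alone, 1 at 4 h and 24 h, 15 at 24 h alone and 0 at all 3 times. Of the 35, 3 were lower at 1 h alone, 15 at 4 h alone, 1 at 4 h and 24 h (M318) and 16 at 24 h alone. Nearly all probes thus passed the limit at 1 time. The order of rise rests on the quantile scale: under median scaling or no scaling 0 probes were higher at 4 h, so the 10 entries that include a rise at 4 h were not found, and the lower probes at 4 h went from 16 to 76 and 93. Beyond all 3 saline arrays were 11 of the 25, 5 of the 5, 2 of the 4 (M333 and M112, but not M655 and MA081) and 0 of the 16 higher at 24 h, and 2 of the 15 and 1 of the 16 lower at 4 h or 24 h alone.

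**Figure D3:**
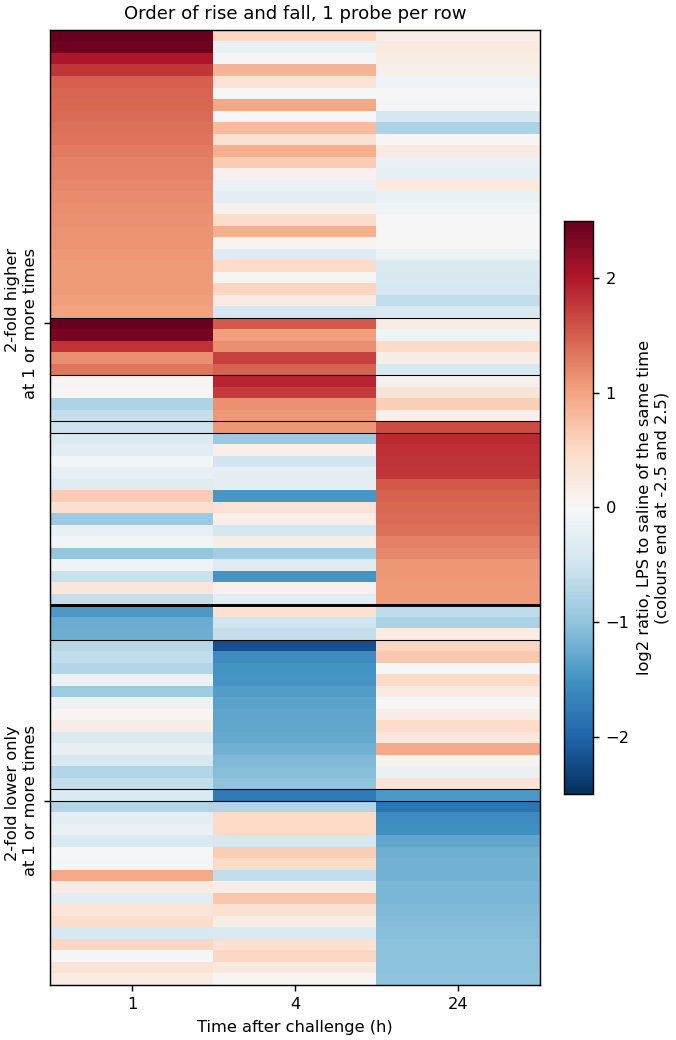
Rows are the 83 probes at least 2-fold from time-matched saline at 1 or more times, and colours give the log2 ratio of LPS to saline at 1, 4 and 24 h. Thin lines part the probes by the times at which they passed the limit, and the thick line parts the 50 higher probes from the 33 that were lower only, so that 25 rows pass at 1 h alone and 5 at 1 h and 4 h.

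The 5 probes higher at 1 h and 4 h were M781, M295, M339, M513 and V367, named after their values were seen. On substance P 1 h, M513 and V367 stood at 15.66 and 15.81, while M781, M295 and M339 stood high. From 1 h to 4 h M339 changed by only -0.22 on the log2 scale, and under median scaling all 5 fell. M295 stood at 17.92, 16.82 and 15.64 on LPS and 15.54 to 15.76 on saline, and M339 at 17.96, 17.74 and 16.38 on LPS and 15.91 to 16.58 on saline. Like M781, both also stood high on substance P 1 h, at 16.94 and 17.13. M295 lay at the floor on saline 1 h, and its 5.19-fold ratio there is a lower bound. Both were called at 1 h (2.23 ± 0.43 and 1.74 ± 0.32, limma adjusted p = 0.0333 and 0.0277), and neither at 4 h (0.229 and 0.0591). The 1 h calls passed in 3 and 4 of the 9 fits that left out 1 array, with adjusted p from 0.000161 to 0.0835 for M295 and from 0.0158 to 0.0744 for M339, and neither passed under median scaling (0.194 and 0.193 in limma).

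M513 and V367 stood higher on LPS 1 h and LPS 4 h than on each of the other 10 arrays. M339 did so by rank, but at 4 h its deposited intensity was 100537, against 121631 on saline 4 h and 358280 on substance P 1 h. M513 stood at 16.84, 17.25 and 15.86 on LPS, 15.54 to 15.70 on saline, with saline 4 h at the floor, and 15.56 to 15.78 on the 6 other arrays. It rose by 1.20 ± 0.11 at 1 h (2.30-fold, limma adjusted p = 0.00194) and 1.61 ± 0.11 at 4 h (3.05-fold, limma adjusted p = 0.000183). V367 stood at 17.13, 17.31 and 15.54 on LPS, the last at the floor, 15.79 to 15.91 on saline and 15.66 to 16.05 on the 6 other arrays. It rose by 1.28 ± 0.13 at 1 h (2.44-fold, limma adjusted p = 0.00204) and 1.46 ± 0.13 at 4 h (2.75-fold, limma adjusted p = 0.000739). By 24 h both had fallen from 1 h, M513 by 0.98 and V367, at the floor on LPS 24 h, by at least 1.59 (limma adjusted p = 0.00822 and 0.00169). From 1 h to 4 h they changed by 0.41 ± 0.14 and 0.17 ± 0.16 (limma adjusted p = 0.254 and 0.724), but under median scaling by -0.65 and -0.88 (0.0469 and 0.0121), so which of the 2 times was higher depends on the scaling. Under median scaling the rises of M513 and V367 at 1 h passed limma (adjusted p = 0.000263 and 0.000206) and those at 4 h did not (0.108 and 0.211). Without scaling, or with the LPS and saline arrays alone, neither probe was called at 1 h or 4 h.

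The groups of probes were then followed on the arrays that had not chosen them. The 30 probes higher at 1 h had a median log2 ratio of 0.40 at 4 h, with 22 above matched saline, and -0.06 at 24 h, with 13 above it. Over all probes the medians were 0.00 at both times, with 50.1% and 49.2% above saline. The 16 probes lower at 4 h had a median of -0.38 at 1 h, with 13 below saline, and 0.30 at 24 h, with 2 below it, where 53.2% and 48.2% of all probes were below. The 16 higher at 24 h had medians of -0.24 and -0.26 at 1 h and 4 h, and 3 and 6 of them lay above saline. These are descriptions without a test, and the 13 of 30 at 24 h is near the share of all probes. The 2 probes in both directions, M511 and M554, were lower at 4 h and higher at 24 h. M511 stood at 19.30, 17.45 and 19.46 on LPS against 18.66, 18.91 and 17.98 on saline.

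The level of a probe mattered to which way it could pass. The 30 probes higher at 1 h had a median rank of 557 on saline 1 h and 64.5 on LPS 1 h, and 2 were at the floor on saline 1 h. The 16 lower at 4 h and the 17 lower at 24 h came from bright probes, with median ranks of 35.5 and 38 on matched saline. The 16 higher at 24 h had a median rank of 168 on saline 24 h and 28.5 on LPS 24 h. A dim probe stands too near the floor to fall 2-fold, so falls among dim probes could not be seen.

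Contrasts between the LPS arrays use no saline level and therefore include any change over time that saline mice share. LPS 4 h and 1 h were 2-fold apart in 41 probes (3.46% of 1185), LPS 24 h and 1 h in 59 (4.98%) and LPS 24 h and 4 h in 53 (4.47%). limma called 9 of 1181 probes between 4 h and 1 h, 5 higher (0.423%) and 4 lower (0.339%) at 4 h. Between 24 h and 1 h it called 40, with 10 higher (0.847%) and 30 lower (2.54%) at 24 h. Between 24 h and 4 h it called 19, with 11 higher (0.931%) and 8 lower (0.677%). Under median scaling 27 probes were called between 24 h and 1 h, all lower at 24 h, of which 24 were among the 40, and the 10 higher probes were not called. Without scaling 37 were called, all lower, on arrays whose medians were 46121 at 1 h and 26283 at 24 h. The part of brightness in that direction was not tested. Between 4 h and 1 h, median scaling called 22, 1 higher and 21 lower. With a time term shared by saline, substance P and ovalbumin, which takes out the shared change over time, limma called 1, 15 and 7 probes in the 3 contrasts.

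The same time term, applied to LPS against saline, left 16, 7 and 0 probes called at 1, 4 and 24 h (111 at an unadjusted p under 0.05 at 24 h). M513, V367, M339 and M840 were still called at 1 h (limma adjusted p = 0.0179, 0.0179, 0.0431 and 0.0398), while V164 (0.0916) and M295 (0.129) were not. At 4 h M333, M112, M513, V367, V210 and M554 were still called (0.00614 to 0.0466), and M318 and M840 were not (both 0.0705). At 24 h M272 (0.257) and MA224 (0.297) were not called. Between LPS times it kept M333 from 1 h to 4 h (0.0463) and M333, M513, M554, V210 and V367 from 4 h to 24 h (0.0218 to 0.0341), and M272, M554 and V367 from 1 h to 24 h (0.0262 to 0.0492). M112 (0.0625 and 0.08), M513 from 1 h to 24 h (0.0829), M272 and M511 from 4 h to 24 h (0.0773 and 0.08), and M840 (0.13), MA224 (0.116) and V282 (0.145) from 1 h to 24 h lost theirs. With the LPS and saline arrays alone 0 probes were called in each contrast (81, 106 and 101 at an unadjusted p under 0.05).

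The direction of the 4 h counts against all 3 saline arrays turned with the scaling. Against matched saline, more probes were lower than higher at 4 h under quantile normalization, median scaling and no scaling. The direction of the 1 h counts did not turn between quantile and median scaling. Against matched saline, median scaling gave 35 higher and 0 lower probes for LPS 1 h, 0 higher and 76 lower for LPS 4 h, and 14 higher and 5 lower for LPS 24 h, and no scaling gave 5 and 260, 0 and 93, and 1 and 114. Against all 3 saline arrays, median scaling gave 23 and 0 for LPS 1 h, which held all 16 of the probes above, 0 and 11 for LPS 4 h, and 1 and 1 for LPS 24 h. No scaling gave 3 and 1, 0 and 9, and 0 and 106. Quantile normalization of the 6 LPS and saline arrays alone gave 8 and 0, 5 and 3, and 0 and 0. LPS 4 h is the array with the narrowest range of these 6, so that a rise measured by rank there can be no rise in intensity relative to the median. M781 at 4 h, rank 20 against rank 92 on saline 4 h, is such a case.

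**Figure D4:**
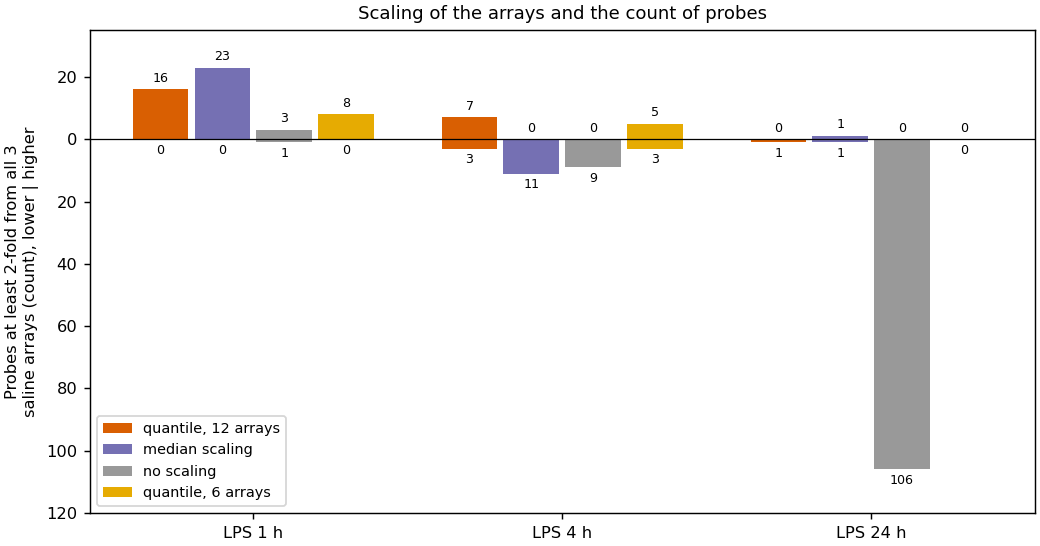
Bars give the number of probes at least 2-fold higher (above 0) or lower (below 0) than all 3 saline arrays on LPS 1, 4 and 24 h under 4 ways of scaling. The 1 h bars stay on the higher side, with 16, 23, 3 and 8 probes, while at 4 h the 7 higher probes of the quantile scale fall to 0 under median scaling and no scaling.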

How the data were processed

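Total RNA of mouse bladder was measured on 12 cDNA arrays per the labels, 1 for each of 4 treatments at 3 times, and groups were taken from the sample titles. The deposited table gives 1 linear intensity per probe and array, and the sources used here do not name the scanner, array type or background step. The members, lists and rules were chosen with earlier results of these data known.

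Arrays were quantile-normalized (limma 3.58.1, R 4.3.3), raised to a floor at the 10th percentile (47684) and log2-transformed. Fold counts used probes that passed the floor on 1 or more of the compared arrays. limma used the 1181 probes that passed it on 3 or more arrays, and 4 were left out. Saline, substance P and ovalbumin arrays were groups over times and each LPS array a group of its own. p-values are two-sided and Benjamini-Hochberg adjusted. The model was also run on simulated data that gave every array the fitted spread. That run cannot check whether a lone LPS array varies like the others. The labels give lot 2 for saline 1 h and 4 h and no lot for saline 24 h or the LPS arrays, so a lot effect was not tested.

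The rule for named probes took, at each LPS time, the 2 highest and 2 lowest by the log2 ratio to the nearest saline array. Its part on probes past 2-fold at all 3 times found none. The gene lists and cell type markers were not tested, as probes have no gene names here. Alternatives were median scaling, no scaling, quantile normalization of 6 arrays, floors at the 5th and 25th percentile, other filters, a fold of 1.5, other variance models, an additive time term, LPS and saline arrays alone and each array left out. A normexp background correction (offset 50) was chosen after seeing the data.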

Additional observations from a re-analysis of the deposited data

Results flagged for a closer look

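The contrasts between LPS times compare the LPS arrays without a saline level. They include any change over time that saline mice share, and each rests on 2 single arrays and the spread of the other groups. limma called 9 probes between 4 h and 1 h, 40 between 24 h and 1 h and 19 between 24 h and 4 h. With the change over time shared by saline, substance P and ovalbumin taken out, which asks whether the effect of LPS differs between times, the counts were 1, 15 and 7.

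Among the probes given in the report, M333 was 2.11 log2 units higher at 4 h than at 1 h and differed by -1.88 at 24 h against 4 h, and M112 differed by 2.28 and -1.86 in the same contrasts. M513 changed by -0.98 between 1 h and 24 h and by -1.38 between 4 h and 24 h, and V367, at the floor on LPS 24 h, by -1.59 and -1.76, the least sizes of its falls. V282 changed by -2.01 between 1 h and 24 h. Higher at 24 h than at 1 h were M554 (1.78), M272 (1.02), M840 (0.90) and MA224 (0.74). Higher at 24 h than at 4 h were M554 (2.46), V210 (2.08), M511 (2.01) and M272 (1.08).

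For 24 h against 4 h, M112, M272, M333, M513, M554, V210 and V367 passed in each of the 9 fits that left out 1 array, and M511 in 3 of 9, without saline 1, 4 or 24 h (adjusted p = 0.0459, 0.0158 and 0.00211). None of these 8 passed under median scaling, where the adjusted p ran from 0.553 to 0.998 in limma. For 24 h against 1 h, V282 was lost without ovalbumin 1 h (adjusted p = 0.0513). Of the probes above, M513 and V367 passed that contrast under median scaling (0.0025 and 0.000714), while V282, M554, M272, M840 and MA224 did not (0.109 to 0.686). Without scaling, M272, MA224 and M840 turned to the opposite sign for 24 h against 1 h (-0.09, -0.57 and -0.44), and so did M272 for 24 h against 4 h (-0.63).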

How the results depend on the processing

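Counts are given for 1, 4 and 24 h in turn. A fold of 1.5 gave 57, 51 and 66 higher and 52, 57 and 65 lower probes against matched saline, and 35, 28 and 13 higher and 7, 19 and 2 lower against all 3 saline arrays. Median scaling gave 35, 0 and 14 higher and 0, 76 and 5 lower, and 23, 0 and 1 and 0, 11 and 1. No scaling gave 5, 0 and 1 and 260, 93 and 114, and 3, 0 and 0 and 1, 9 and 106. Quantile normalization of 6 arrays gave 15, 5 and 11 and 3, 12 and 6, and 8, 5 and 0 and 0, 3 and 0. The normexp correction, which spreads dim probes, gave 197, 207 and 216 and 200, 200 and 235, and 71, 67 and 33 and 50, 86 and 48. Other floors gave the same counts, and requiring every array above the floor kept them within 1.5 times.

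Without saline arrays 1 at a time, the counts against the remaining pair ran from 16 to 21, 8 to 16 and 0 to 5 higher and 0 to 2, 4 to 12 and 1 to 3 lower. Saline 4 h decided the 16 higher probes at 4 h and the 5 at 24 h. The 12 lower at 4 h came without saline 24 h and 8 without saline 4 h. Without saline 1 h, 2 were higher at 24 h and 2 lower at 1 h. Without saline 4 h, 1 was lower at 1 h, and 3 were lower at 24 h without saline 4 h or saline 24 h. M272 at 24 h against the highest saline array turned from 0.94 to -0.90 without scaling, which lowers most probes. M554, not called there, turned from 0.97 to -1.07 against the highest saline array, but stayed above saline 24 h in deposited intensity.

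limma counts are given for LPS 1, 4 and 24 h against saline (35, 18 and 2), then 4 h against 1 h, 24 h against 1 h and 24 h against 4 h (9, 40 and 19). Median scaling gave 29, 0, 0, 22, 27 and 0, with 48 unadjusted in the last. No scaling gave 0, 0, 1148, 0, 37 and 984 (499, 48 and 241 unadjusted for the counts of 0), all lower, and 437 averaged over times. The additive time term gave 16, 7, 0, 1, 15 and 7 (111 unadjusted at 24 h). The normexp correction gave 0, 9, 0, 0, 9 and 2 (162, 110 and 125 unadjusted for the counts of 0). LPS and saline arrays alone gave 0 in all 6. The 25th percentile floor gave 14 for 4 h against 1 h, the 5th percentile floor 1 at 24 h, and a trended robust variance 11 at 4 h.

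Leaving out 1 array gave 24 to 33, 9 to 44 and 0 to 4 against saline, and 5 to 23, 25 to 53 and 7 to 47 between times. At 4 h, 9 passed without ovalbumin 1 h or 4 h, 38 without saline 24 h and 44 without saline 4 h. At 24 h, 0 passed without saline 1 h, substance P 24 h or any 1 of the ovalbumin arrays, 1 without substance P 1 h or 4 h, and 4 without saline 4 h. For 4 h against 1 h the count was 23 without saline 24 h, 15 without saline 4 h, and 5 leaving out substance P 4 h, and for 24 h against 1 h 25 without ovalbumin 1 h. For 24 h against 4 h it was 47 without saline 24 h and 7 to 10 without substance P 1, 4 or 24 h or ovalbumin 1 h or 4 h. The cause of these shifts was not tested. No paired analysis was possible because the labels give no replicate numbers; the time term above is the fit that uses the shared times.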

Other observations

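The probe codes of the V series made up 16 of the 30 probes that limma called higher at 1 h (53.3%), and 29.6% of the probes tested. They were 19 of the 30 called lower at 24 h than at 1 h (63.3%), a contrast that shares the LPS 1 h array, and 15 of the 29 called higher at 1 h under median scaling (51.7%). Among the probes at least 2-fold above matched saline at 1 h they were 11 of 30 (36.7%), nearer to their share of all probes, and above all 3 saline arrays 7 of 16 (43.8%). At 4 h they were 2 of the 11 called higher (18.2%). Whether the series marks a group of genes or a place on the array is not given in the sources used here, and its part in the 1 h calls was not tested.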
